A study of Mus musculus with 12 samples.

Results

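Dendritic cell marker genes were examined in CD11b+ myeloid cells that had been sorted out of MC38 tumors. MC38 is a colon carcinoma line of the C57BL/6 mouse, and the tumors grew in C57BL/6J mice. The group is 8 genes out of 54446 gene identifiers in the count tables, chosen by name because each is used to recognise dendritic cells or 1 of their subsets: *Flt3*, *Zbtb46*, *Clec9a*, *Batf3*, *Cd209a*, *Siglech*, *Fscn1* and *Cd83*. Each was matched by its GENCODE symbol to its Ensembl identifier, and all 8 were counted in all 12 libraries. The mice were WT in the sense of the study, that is, they carried *Ythdf2* fl/fl alleles without Cre, and this held for all groups. Ctrl mice had tumors that were not irradiated and IR mice had tumors given 20 Gy in 1 dose, with cells taken 3 days later. Each condition had 3 pools of 5 mice, and each pool gave an Input library from the lysate and a library from the RNA that an antibody against YTHDF2 pulled down (IP). The methods put the mice of the study in general at 8 to 10 weeks of age, of both sexes. No library with a control antibody was used here. The study calls the pools technical replicates, so the p-values measure the spread between these pools, which may be partly technical.

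Dendritic cells take up antigen, carry it to lymph nodes and present it to T cells. Conventional type 1 cells (cDC1) cross-present antigen to CD8+ T cells, conventional type 2 cells (cDC2) mainly prime CD4+ T cells, plasmacytoid cells (pDC) secrete type I interferon, and any conventional cell that has taken up tumor material can mature into a migratory state marked by *Ccr7*. YTHDF2 is a cytoplasmic protein that reads N6-methyladenosine (m6A) on mRNA and speeds the decay of the transcripts it binds. The questions were whether the level of dendritic cell transcripts in the sorted cells differed with IR, and whether these transcripts were more or less abundant in the IP than in the Input, before and after IR. Since the cells were purified by CD11b, which cDC1 and pDC carry at low levels or lack, the sort itself limits which dendritic cells could be present.

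m6A is laid down mainly in the letters GGACT and close relatives of them, often near the stop codon. GGACT was searched, on the sense strand, in 1 GENCODE M21 transcript of each member. It was present in 6 of 8 members, and the 21-base stretch around the copy nearest to the stop codon is shown for each of them, since m6A sites often carry these letters. Capitals mark GGACT, and all stretches are written 5′ to 3′ in the sense of the mRNA as DNA letters.
Flt3: gcttcgctGGACTtttctcta
Zbtb46: gagcactaGGACTgaacacga
Cd209a: tgcccctgGGACTggacgcac
Siglech: tgccaactGGACTgtctccag
Fscn1: cccaggagGGACTctggttcc
Cd83: agcaacgcGGACTtggggacg

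The *Flt3* stretch lies in the 3′ UTR at chr5:147331059-147331079 of mm10 (minus strand), and the *Zbtb46* stretch in the 3′ UTR at chr2:181390837-181390857 (minus strand). The *Cd209a* stretch lies in coding sequence at chr8:3746995-3747015 (minus strand). The *Siglech* stretch is in the 3′ UTR at chr7:55777551-55777571 (plus strand) and the *Fscn1* stretch in the 3′ UTR at chr5:142972295-142972315 (plus strand). For *Cd83* the nearest copy was in the 5′ UTR, at chr13:43785051-43785071 (plus strand). The transcripts held 5 copies in *Zbtb46*, 4 in *Cd83*, 4 in *Fscn1*, 3 in *Flt3*, 2 in *Siglech* and 1 in *Cd209a*. The transcripts used for *Clec9a* and *Batf3* held none of these letters. Within 200 bases on either side of the end of the coding sequence, 2 of 8 members (*Flt3* and *Siglech*) had a copy, against 41.1% of the 12459 coding genes with such a window among the genes tested. A match is a description of the sequence only, and m6A itself was not measured in these libraries.

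The libraries held 27852948 to 42382532 counts on genes. Reads that the counting assigned to no gene feature made up 24.6% to 27.0% of the Input libraries, 41.8% to 42.7% of the Ctrl IP and 49.4% to 54.1% of the IR IP. Where these reads lay was not examined. The IR IP pools also differed more among themselves than those of any other group, with a chi-square per gene of 18.7 to 23.2 between pairs of pools, against 3.69 to 7.50 between Input pools. Values below are CPM, the counts of a gene relative to all counts of its library and rescaled by the trimmed mean of M-values (TMM) over all 12 libraries, with 1 value per pool in the order of the replicate numbers. The fold changes come from fits on the libraries of the comparison alone, so they can differ from ratios of these CPM. For IR against Ctrl in the Input, the median log2 fold change of the genes tested was 0.0072 in the fit reported. With all 12 libraries in 1 fit it was 0.097, a shift that matters for small changes. *Ythdf2* itself was at 58.0 ± 0.47 CPM in Ctrl Input and 51.5 ± 3.81 CPM in IR Input (SD, n = 3 each), with a log2 fold change of -0.25 (adjusted p = 2.97e-04, edgeR). With all 12 libraries in 1 edgeR fit the change was -0.17 (adjusted p = 0.261), and the call was lost. For comparison, *Itgam*, which encodes CD11b, rose from 944 ± 1.40 to 1718 ± 23.5 CPM in the Input (SD, n = 3 each), with a log2 fold change of 0.79. The 6 genes of the myeloid gate, *Itgam* among them, summed to 5080 to 5104 CPM in Ctrl and 6167 to 6262 CPM in IR, with 3 higher and 1 lower. Of all genes tested in the Input, 21.0% were higher and 23.9% lower. The log2 fold changes of the 6 ran from -0.16 to 0.79 with a median of 0.097, and *Itgam* had the highest.

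The levels of the 8 members in the Ctrl Input covered a wide range. Per kilobase of merged exons, *Fscn1* was highest at 88.1 ± 1.67 CPM per kb, followed by *Cd83* at 57.0 ± 1.45 and *Batf3* at 42.8 ± 1.09 (SD, n = 3). *Cd209a* came next at 8.39 ± 1.23 CPM per kb, *Siglech* at 5.19 ± 0.54, *Zbtb46* at 3.25 ± 0.19, *Flt3* at 1.77 ± 0.16 and *Clec9a* at 1.56 ± 0.060. No 2 neighbours in this order overlapped among their pools. The pair of genes used for mature cells, *Fscn1* and *Cd83*, led the order. In the IR Input the 4 leading places were unchanged, while *Siglech* moved to the last place at 1.52 ± 0.15 CPM per kb, where its pools overlapped those of *Flt3* at 1.55 ± 0.076. In the broader lists, *Ccl22* was at 868 ± 13.8 CPM, *Ccl17* at 429 ± 15.4 CPM and *Ccr7* at 169 ± 2.43 CPM in Ctrl Input, all genes of mature dendritic cells, whereas *Xcr1*, the chemokine receptor that defines cDC1, had only 1 to 10 counts in any Input library.

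**Figure D1:**
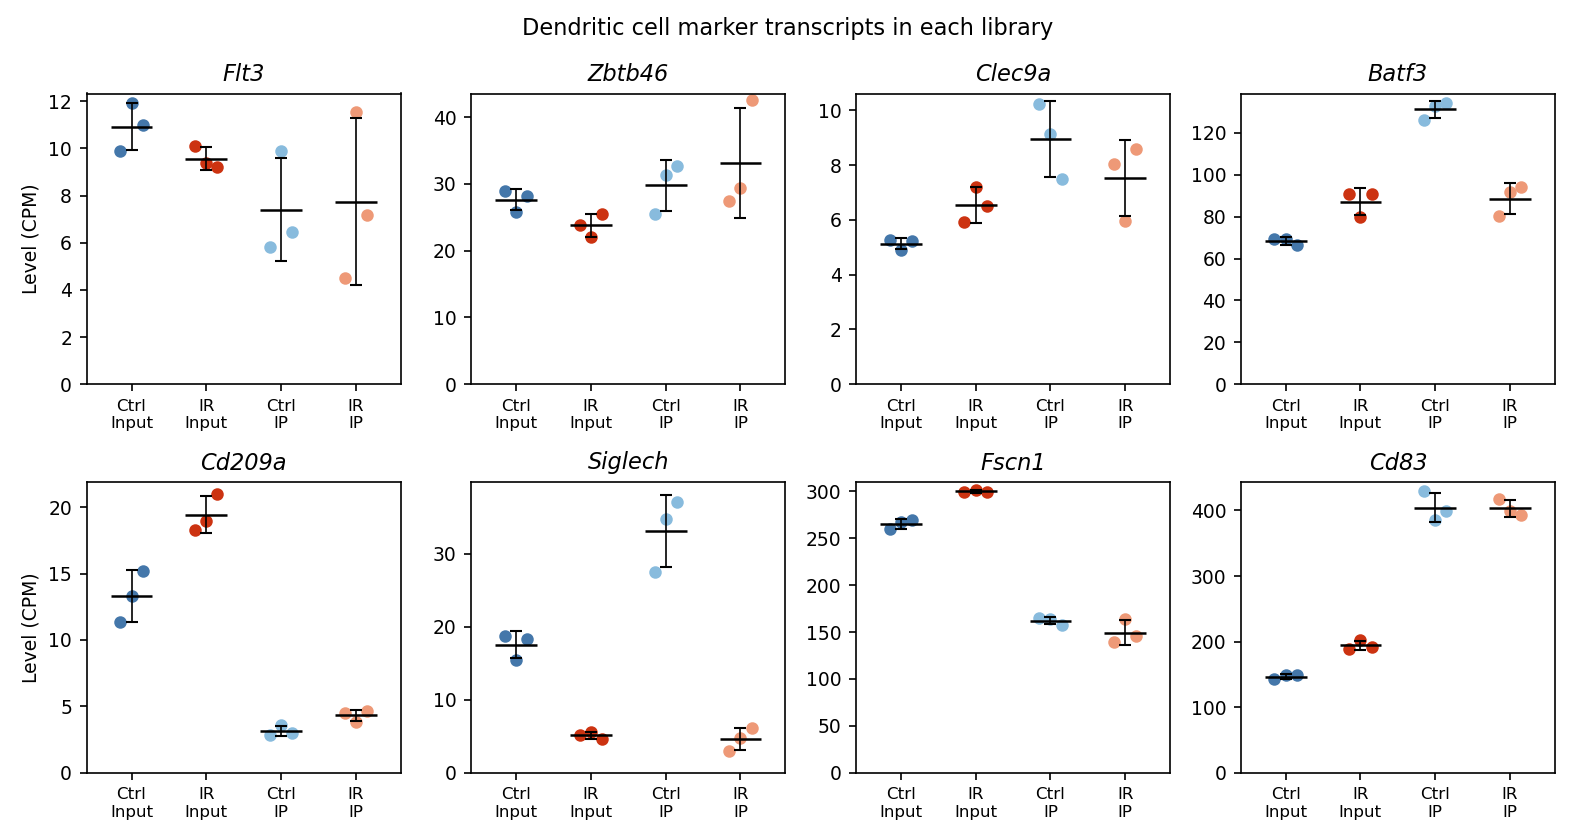
Level of each of the 8 dendritic cell marker transcripts in every library, in CPM scaled over 12 libraries, with 1 point per pool and a bar and whiskers for the mean and SD (n = 3). *Siglech* is at 4.61 to 5.58 CPM in the IR Input against 15.5 to 18.8 CPM in the Ctrl Input, and *Batf3* in the IP drops from 126 to 134 CPM in Ctrl to 80.0 to 93.9 CPM in IR.

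In the Input, the members did not all differ between IR and Ctrl in the same direction. The directions did not sort by dendritic cell subset. *Zbtb46* and *Flt3*, both lower, are not markers of a single subset, and each of the dendritic cell lists given below held both higher and lower genes. Of the 8 members, 4 were higher after IR (*Cd209a*, *Cd83*, *Batf3* and *Fscn1*), 3 were lower (*Siglech*, *Zbtb46* and *Flt3*), and *Clec9a* was not past the threshold of an adjusted p of 0.05 (edgeR). The background was high, since 45.0% of the 16914 genes tested passed in either direction, 21.0% of them higher and 23.9% lower. The pools of both conditions did not overlap for 7 of 8 members, 5 higher and 2 lower, against 53.8% of all genes tested, 32.6% higher and 21.1% lower. In bulk RNA of sorted cells, fewer cells of a type and less RNA per cell cannot be told apart.

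*Siglech* encodes a surface lectin of pDC (Siglec-H) and had the largest change of the 8. Its levels were 18.8, 15.5 and 18.4 CPM in the Ctrl Input and 5.24, 5.58 and 4.61 CPM in the IR Input. All 3 IR pools were far below all 3 Ctrl pools. The log2 fold change was -1.85 with an SE of 0.11 (adjusted p = 3.18e-13), or 0.277 times the Ctrl level, and it lay between -1.94 and -1.77 when any 1 pool was left out. The gene spans chr7:55768178-55778925 of mm10 on the plus strand, with 6 merged exons.

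*Cd209a* encodes DC-SIGN, a C-type lectin of cDC2 and of monocyte-derived dendritic cells. Its Input levels were 11.3, 13.3 and 15.2 CPM in Ctrl and 18.3, 18.99 and 20.98 CPM in IR. The IR pools were all higher, with a log2 fold change of 0.47 (SE 0.097, adjusted p = 2.57e-04). *Cd209a* (chr8:3743397-3748984, minus strand) has near relatives in the Cd209 family, and 1570472 to 2935594 reads per library stood on the files' summary line for reads with more than 1 alignment. HTSeq leaves such reads off the genes by default, and as its options are not given in the sources used here, the counts of *Cd209a* carry that uncertainty.

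*Cd83* encodes an immunoglobulin-like surface protein that appears as dendritic cells mature, and *Fscn1* encodes fascin, which bundles actin in the extensions of mature dendritic cells. Neither is restricted to dendritic cells, since activated macrophages, lymphocytes and tumor cells can use them too. *Cd83* was at 142, 148 and 149 CPM in the Ctrl Input and at 188, 202 and 192 CPM in the IR Input. The groups did not overlap, and the log2 fold change was 0.33 (SE 0.036, adjusted p = 3.26e-08). *Fscn1* rose from 260, 267 and 269 CPM to 299, 302 and 299 CPM. Its groups did not overlap either, but the change was small, with a log2 fold change of 0.10 (SE 0.031, adjusted p = 0.0107). *Cd83* lies at chr13:43784775-43803132 (plus strand, 4 merged exons) and *Fscn1* at chr5:142960343-142973185 (plus strand, 8 merged exons).

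*Batf3* encodes the basic leucine zipper factor that cDC1 need for their development. Per kilobase it stood at 42.8 CPM in the Ctrl Input, against 1.56 for *Clec9a*. Which cells of the sort carried *Batf3* was not tested. It was at 69.5, 69.1 and 66.3 CPM in the Ctrl Input and at 90.8, 79.7 and 90.9 CPM in the IR Input. All IR pools lay above all Ctrl pools (log2 fold change 0.27, SE 0.049, adjusted p = 4.75e-05). *Clec9a*, the receptor by which cDC1 sense dead cells, had a change of the same size but far fewer counts. Its levels were 5.26, 4.90 and 5.24 CPM in Ctrl and 5.91, 7.21 and 6.51 CPM in IR, from 184 to 263 counts per Input library. The pools did not overlap, but the log2 fold change of 0.27 (SE 0.14) missed the threshold with an adjusted p of 0.108. Of its exon bases, 184 are shared with *Clec1b* on the same strand, which makes its counts uncertain. *Batf3* lies at chr1:191097847-191108945 and *Clec9a* at chr6:129408862-129424763, both on the plus strand.

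*Zbtb46* encodes a zinc finger factor that separates conventional dendritic cells from other myeloid cells, and *Flt3* encodes the receptor whose ligand drives dendritic cell development. *Zbtb46* was at 28.9, 25.9 and 28.2 CPM in the Ctrl Input and at 23.8, 22.1 and 25.5 CPM in the IR Input. All IR pools lay below the Ctrl pools, with a log2 fold change of -0.29 (SE 0.073, adjusted p = 0.00163). *Flt3* had 9.89, 11.9 and 10.99 CPM in Ctrl and 10.1, 9.40 and 9.21 CPM in IR, and these groups overlapped. Its log2 fold change of -0.27 (SE 0.11) passed narrowly, with an adjusted p of 0.0387. The calls for both genes depended on the fit. With all 12 libraries in a single fit, *Zbtb46* was at -0.22 (adjusted p = 0.342) and *Flt3* at -0.19 (adjusted p = 0.696), and the *Flt3* call was lost in 7 of 14 alternatives, with an adjusted p of 0.0519 by DESeq2 and of 0.166 without Ctrl pool 2. *Flt3* spans chr5:147330741-147400489 and *Zbtb46* chr2:181387762-181459426, both on the minus strand.

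The members were then set beside 63 further genes in 5 lists named for dendritic cells. Other myeloid cells can express some of these genes too, and their part in the changes was not tested. Over the 60 list genes tested in the Input, 33 were higher, 10 lower and 17 not past the threshold. Of all genes tested there, 21.0% were higher and 23.9% lower, and each list below stands against these shares. The median log2 fold change of the 60 was 0.17, against 0.0072 for all genes tested. The list of mature dendritic cell genes had 12 of 16 genes higher and 1 lower, with a median of 0.25. Of the cDC2 genes, 7 of 10 were higher and 1 lower. The cDC1 list had 4 of 9 tested genes higher and 1 lower. Of 14 tested genes of dendritic cell development, 8 were higher and 3 lower. The pDC list was the exception, with 2 of 11 tested genes higher, 4 lower and a median of 0.029.

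The genes with the largest rises among these lists came from several subsets. *Cd300c*, an activating receptor placed in the pDC list, rose from 1.21 ± 0.13 to 5.22 ± 0.45 CPM (SD, n = 3 each), with a log2 fold change of 2.02. *Clec10a*, a galactose-binding lectin of cDC2, rose from 34.9 ± 1.78 to 54.0 ± 2.90 CPM (log2 fold change 0.55), which places it beside *Cd209a*. The costimulatory ligands *Cd80* and *Cd86* rose by 0.54 and 0.45 on the log2 scale, the latter from 123 ± 2.53 to 178 ± 6.76 CPM, and stood beside *Cd83*. *Flt3l*, the ligand of the receptor encoded by *Flt3*, was higher by 0.54 on the log2 scale, at 12.8 ± 0.12 CPM after IR against 8.39 ± 0.42 CPM in Ctrl, while the receptor itself was not higher. *Snx22*, a sorting nexin found in cDC1, was higher by 0.49 on the log2 scale with an adjusted p of 0.0464, and lost its call in 9 of 14 alternatives, with adjusted p between 0.0502 and 0.344 in those.

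The largest falls included another receptor of pDC. *Ccr9*, a chemokine receptor that pDC use to home to the gut, went from 4.37 to 5.86 CPM in the Ctrl Input to 0.668 to 1.66 CPM in the IR Input, with a log2 fold change of -2.32 (SE 0.25, adjusted p = 1.63e-08). It moved in the same direction as *Siglech*, whereas *Bst2*, an interferon-induced protein also carried by pDC, was at 34.2 ± 0.97 CPM in Ctrl and 44.5 ± 0.57 CPM in IR (log2 fold change 0.30). *Tcf4*, the factor that specifies pDC, was at 46.0 ± 2.91 and 44.4 ± 0.10 CPM and did not pass the threshold (adjusted p = 0.0523). *Wdfy4*, needed by cDC1 for cross-presentation, had a log2 fold change of -0.70 (SE 0.037). The remaining falls chosen by the same rule were *Ikzf1* (Ikaros) at -0.53, *Kit* (the stem cell factor receptor) at -0.48, *Lair1* (an inhibitory collagen receptor) at -0.34 and *Irf4* (a factor of cDC2) at -0.30. With all 12 libraries in 1 edgeR fit, the calls of *Kit* (adjusted p = 0.0534) and *Irf4* (adjusted p = 0.0520) were lost. *Bst2* and *Tcf4* were named after their values were seen.

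**Figure D2:**
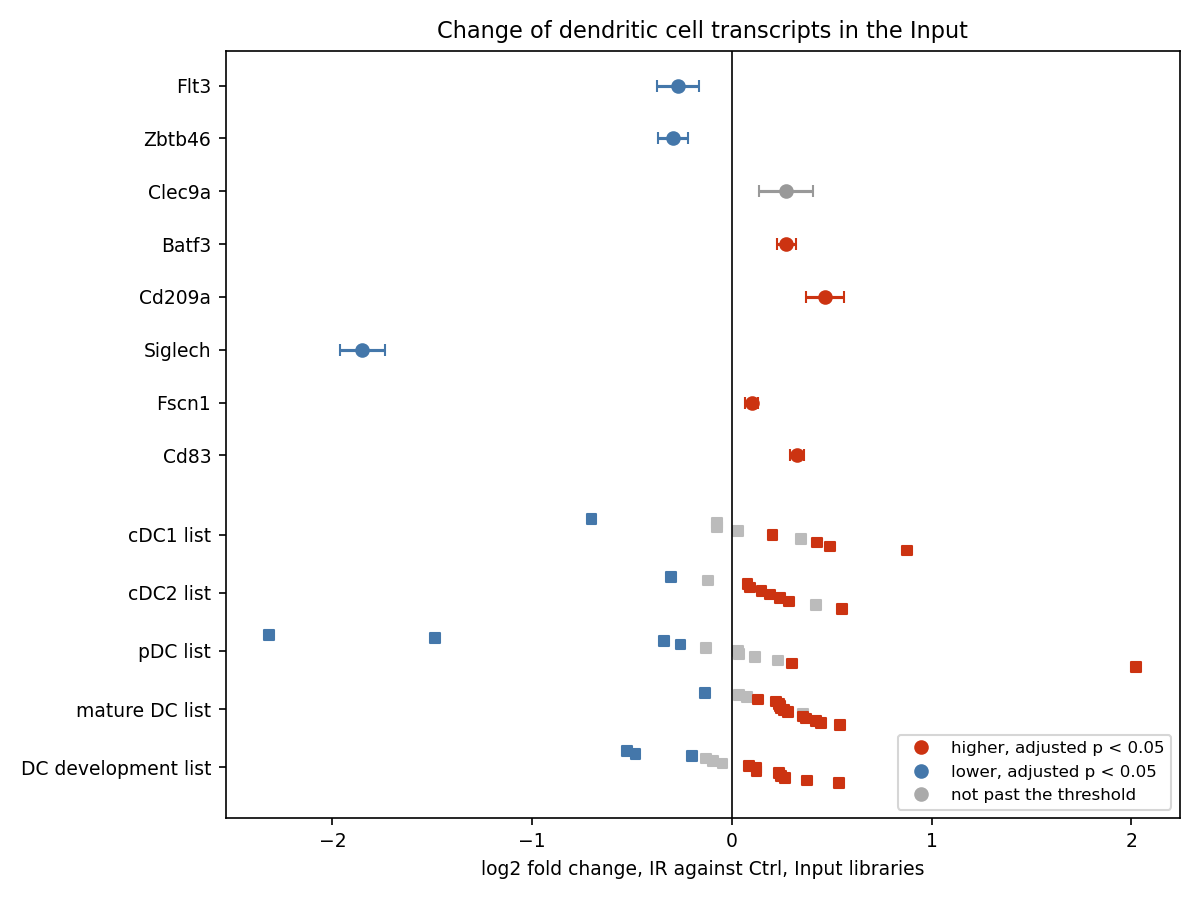
log2 fold change of IR against Ctrl in the Input libraries for the 8 members (circles, whiskers show 1 SE) and for the tested genes of the 5 dendritic cell lists (squares, 1 per gene), coloured by call at an adjusted p of 0.05. *Siglech* at -1.85 stands far left of the other members, which lie between -0.29 and 0.47, and the mature list has 12 of 16 squares called higher.

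Other cells were present in the sort, and their marker levels moved with IR as well. The counts of calls here stand against 21.0% higher and 23.9% lower among all genes tested in the Input. The summed level of 9 neutrophil genes was 8231 to 8858 CPM in the Ctrl Input and 11101 to 11627 CPM in the IR Input, with 7 of 9 genes higher and none at 0. The 8 monocyte genes summed to 1852 to 1928 CPM and to 2055 to 2157 CPM, with 3 higher and 4 lower. The 10 macrophage genes summed to 537 to 558 CPM and to 520 to 545 CPM, with 5 higher and 5 lower. Genes of mast cells, basophils and eosinophils summed to 183 to 186 CPM in Ctrl and 127 to 136 CPM in IR, with 4 of 6 lower, as *Siglech* and *Ccr9* were. T cell genes summed to at most 3.51 CPM and NK cell genes to at most 0.720 CPM in any Input library, so both were near the floor. Of the 7 epithelial genes *Krt19* was at 0 in all Input libraries, and *Krt8* and *Cldn4* had under 10 counts in each. Only 3 of the 7 could be tested in the Input, with 1 lower and 2 not called. The sum of the 7 was 120 to 128 CPM in Ctrl and 92.1 to 97.7 CPM in IR. The 7 stromal genes summed to 31.7 to 33.5 CPM and 30.9 to 34.4 CPM. The part of these other cells in the changes of the 8 members and of the dendritic lists was not tested.

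In Ctrl cells, the 8 members split widely in how they appeared in the YTHDF2 IP. *Cd83*, *Batf3*, *Siglech* and *Clec9a* were higher in the IP than in the Input, *Cd209a*, *Fscn1* and *Flt3* were lower, and *Zbtb46* did not pass the threshold. The same test called 68.7% of the 17416 genes tested, 34.1% higher in the IP and 34.6% lower, so a count of 4 higher and 3 lower among 8 is close to that of genes at large. The IP and Input pools did not overlap for 6 of 8 members, against 73.1% of genes, 33.6% higher and 39.5% lower. The sizes of the differences were wide apart. *Cd83* was at 429, 385 and 399 CPM in the Ctrl IP, above its Input in every pool, with a log2 ratio of IP to Input of 1.54 (SE 0.045, adjusted p = 4.37e-15). *Batf3* was at 126, 133 and 134 CPM in the Ctrl IP, with a ratio of 1.02 on the log2 scale (SE 0.053, adjusted p = 1.06e-11). For *Ythdf2* mRNA itself the log2 ratio was 0.74 in Ctrl and 0.50 in IR.

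*Siglech* had 27.6, 34.8 and 37.1 CPM in the Ctrl IP, all above its Input pools, and a log2 ratio of 0.99 (SE 0.12, adjusted p = 7.31e-07). *Clec9a* had 10.2, 9.14 and 7.48 CPM there, and its log2 ratio was 0.88 (SE 0.17, adjusted p = 2.38e-04). At the other end, *Cd209a* was strongly under-represented, at 2.81, 3.59 and 3.02 CPM in the Ctrl IP. Every pool was below its Input, with a log2 ratio of -2.002 (SE 0.18, adjusted p = 1.72e-08). *Fscn1* was at 165, 163 and 158 CPM in the Ctrl IP and its log2 ratio was -0.63 (SE 0.042). *Flt3*, at 5.82, 9.89 and 6.48 CPM, overlapped its Input pools and had a log2 ratio of -0.48 (adjusted p = 0.0295), a call that was lost in 4 of 11 alternatives, without Ctrl pool 1 (adjusted p = 0.130) and without Ctrl pool 3 (adjusted p = 0.177) among them. *Zbtb46*, at 25.5, 31.3 and 32.7 CPM, had a log2 ratio of 0.18 (adjusted p = 0.119), which passed without Ctrl pool 1 (0.34, adjusted p = 0.0105). In the motif search the transcripts used held 4 copies of GGACT in *Cd83*, 2 in *Siglech* and none in *Batf3* and *Clec9a*. They held 1 in *Cd209a*, 4 in *Fscn1*, 3 in *Flt3* and 5 in *Zbtb46*, and a link of these copies with the IP was not tested.

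After IR, fewer of the members stood above their Input. *Cd83* and *Zbtb46* were higher in the IP, *Cd209a* and *Fscn1* lower, and *Batf3*, *Clec9a*, *Flt3* and *Siglech* were not past the threshold. Of the 18650 genes tested in the IR libraries, 62.6% passed, 32.1% of them higher and 30.4% lower. The IP and Input pools stood apart for 4 of 8 members, against 69.5% of genes, 33.3% higher and 36.2% lower. *Cd83* was at 418, 399 and 393 CPM in the IR IP, above every IR Input pool, with a log2 ratio of 1.11 (SE 0.048, adjusted p = 6.89e-09). *Zbtb46* was at 27.4, 29.4 and 42.5 CPM, with the pool at 42.5 CPM well above the other two, and a log2 ratio of 0.53 (SE 0.16, adjusted p = 0.0140). *Cd209a*, at 4.49, 3.83 and 4.64 CPM, was below its Input in every pool, with a log2 ratio of -2.11 (SE 0.17, adjusted p = 9.37e-07). *Fscn1*, at 139, 164 and 145 CPM, had a log2 ratio of -0.95 (SE 0.061, adjusted p = 1.70e-07).

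*Batf3* was at 80.0, 91.6 and 93.9 CPM in the IR IP, which overlapped its IR Input, and the log2 ratio was 0.08 (SE 0.082, adjusted p = 0.422). That value was small and depended on the scaling, being 0.23 with library size only (adjusted p = 0.0236), 0.25 without IR pool 1 (adjusted p = 0.0411) and -0.06 with no filter on low counts. *Siglech* was at 3.01, 4.82 and 6.07 CPM in the IR IP, from 98 to 182 counts, with a log2 ratio of -0.09 (SE 0.29, adjusted p = 0.792). *Clec9a* (8.03, 5.96 and 8.58 CPM) had 0.26 (adjusted p = 0.327). *Flt3* varied most, at 4.52, 11.5 and 7.18 CPM, with a log2 ratio of -0.25 (adjusted p = 0.476), and the sign differed between pools.

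**Figure D3:**
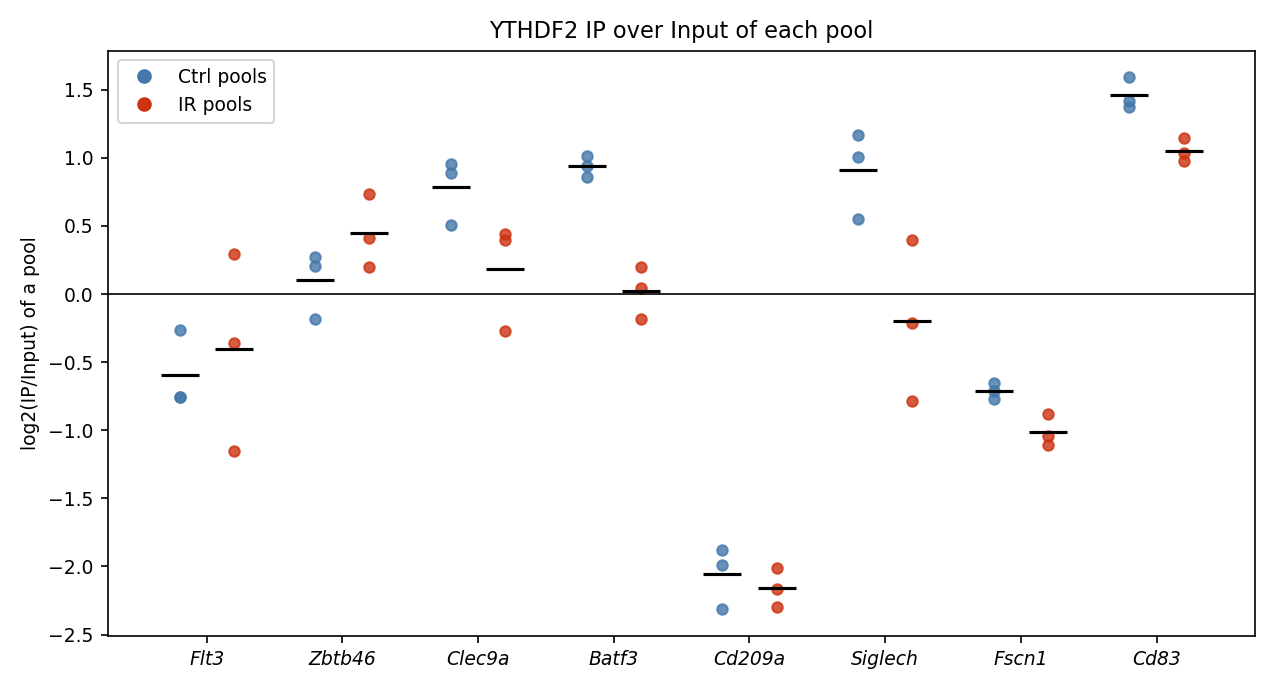
log2 ratio of IP to Input of each pool for the 8 members, from CPM scaled over 12 libraries, in Ctrl pools (blue) and IR pools (red), with a black bar for the mean of 3 pools. IP and Input were paired by replicate number. The *Batf3* pools lie at 0.86 to 1.01 in Ctrl and at -0.18 to 0.20 in IR, while the *Cd209a* pools stay between -2.31 and -1.88 in both.

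The change of the IP to Input ratio with IR was then tested itself, as the interaction of fraction and condition over all 12 libraries. The ratio was lower after IR for 4 of 8 members (*Batf3*, *Siglech*, *Cd83* and *Fscn1*) and higher for none. Of the 20720 genes tested, 20.2% passed, 6.28% higher and 13.9% lower, that is 1301 higher and 2881 lower, while scaling by library totals alone gave 2862 higher and 877 lower. The ratios of the IR pools all lay below those of the Ctrl pools for 5 of 8 members, *Clec9a* being the fifth, and above them for none. Of all genes, 35.4% stood apart in this way, 13.8% higher and 21.6% lower. The median of all genes was -0.083, and that of the 8 members was -0.35.

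For *Batf3* the log2 ratio dropped by 0.91 (SE 0.098, adjusted p = 1.02e-06). Both parts of the ratio moved, since *Batf3* was higher after IR in the Input and lower in the IP. In the IP the fall was from 126, 133 and 134 CPM to 80.0, 91.6 and 93.9 CPM, with no overlap, and the log2 fold change was -0.55 (SE 0.079, adjusted p = 1.21e-04). For *Siglech* the ratio dropped by 1.07 on the log2 scale (SE 0.27, adjusted p = 0.00740). Its transcript fell in both fractions and more in the IP, where the log2 fold change was -2.83 (SE 0.23, adjusted p = 2.10e-07). The *Siglech* interaction lost its call without Ctrl pool 2 (-0.94, adjusted p = 0.0659), without Ctrl pool 3 (-1.01, adjusted p = 0.0519) and with library size only (-0.76, adjusted p = 0.0551).

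For *Cd83* the change of the ratio was -0.41 on the log2 scale (SE 0.068, adjusted p = 1.80e-04), and for *Fscn1* it was -0.29 (SE 0.075, adjusted p = 0.00762). In both cases the Input was higher after IR and the IP gave no call. *Cd83* in the IP had a log2 fold change of 0.0081 (adjusted p = 0.945), with the IR pools at 393 to 418 CPM and the Ctrl pools at 385 to 429 CPM. *Fscn1* in the IP had -0.10 (adjusted p = 0.379). These calls rested on the scaling of the IP. When libraries were scaled by their totals alone, the median of all genes moved from -0.083 to 0.23, the *Cd83* change became -0.09 (adjusted p = 0.436), the *Fscn1* change became 0.02 (adjusted p = 0.908), and *Zbtb46* passed as higher (0.68, adjusted p = 0.0162). The *Fscn1* call was also lost without Ctrl pool 1 (adjusted p = 0.0574) and with a filter of 10 counts in every library (adjusted p = 0.0683). *Batf3* kept its call under every alternative run. The shares of reads assigned to no gene feature and the spread between IR IP pools given above moved with this comparison, and their part in it was not tested.

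The other 4 members had no call in this test. *Cd209a* changed by -0.09 (adjusted p = 0.862). In the IP its log2 fold change was 0.47, as in the Input, but with an SE of 0.34 (adjusted p = 0.397). *Clec9a* had -0.60 (SE 0.28, adjusted p = 0.144), *Flt3* 0.26 (SE 0.36, adjusted p = 0.698) and *Zbtb46* 0.37 (SE 0.20, adjusted p = 0.222). The IP libraries held 81 to 146 counts of *Cd209a*, 198 to 320 of *Clec9a* and 147 to 383 of *Flt3*, and the part of depth in these SE was not tested. In the IP of IR against Ctrl, 2 of 8 members were called, both lower, against 16.0% of 19255 genes, 6.12% higher and 9.85% lower. Pools stood apart for 3 of 8 members, *Cd209a* higher and the other two lower, against 34.0% of genes, 16.0% higher and 18.0% lower.

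**Figure D4:**
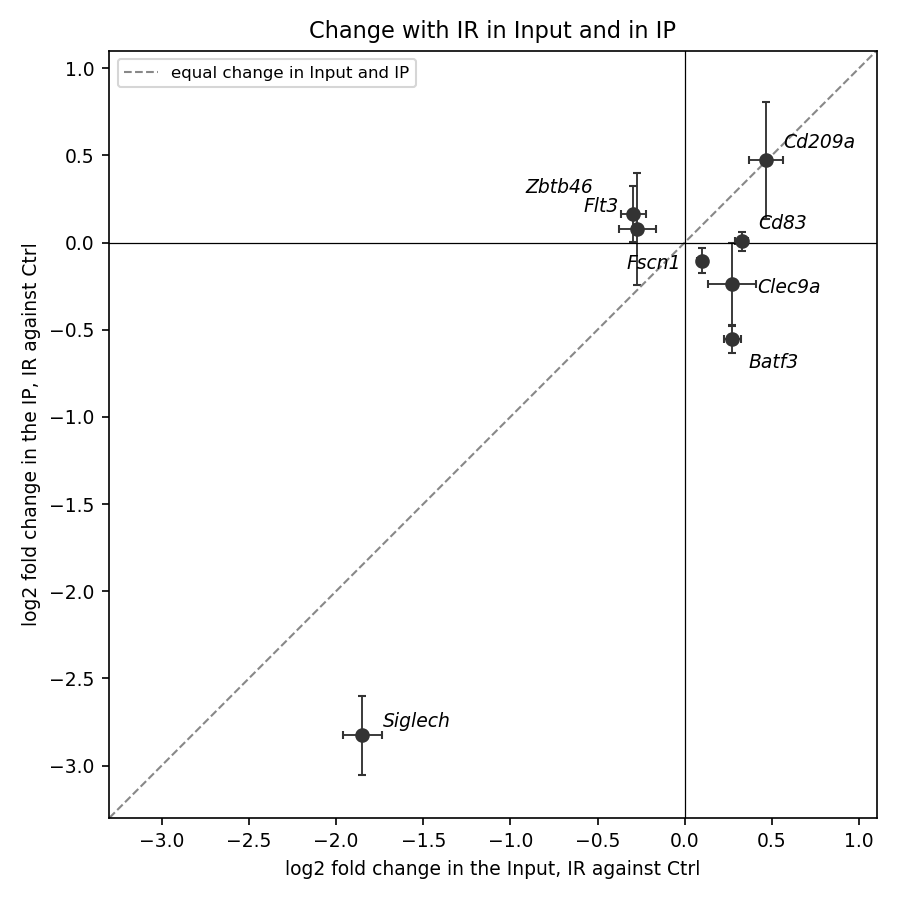
log2 fold change of IR against Ctrl in the Input (horizontal axis) and in the IP (vertical axis) for the 8 members, with whiskers of 1 SE, and a dashed line where both are equal. *Batf3* lies at 0.27 and -0.55, *Siglech* at -1.85 and -2.83 and *Cd83* at 0.33 and 0.0081, all under the line, while *Cd209a* at 0.47 and 0.47 lies on it.

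The 63 further genes from the dendritic lists showed the same split in the Ctrl IP, with 25 higher and 25 lower of 60 tested, against 34.1% and 34.6% of all genes. After IR, 18 were higher and 28 lower of 59 tested, against 32.1% and 30.4%. The change of the ratio was lower for 31 and higher for 4 of 61 tested, against 13.9% and 6.28% of all genes, with a median of -0.35 against -0.083 for all genes, and scaling by library totals alone gave 8 lower and 10 higher. Of the mature dendritic cell genes, 12 of 16 had a lower ratio after IR and 1 a higher one, while scaling by library totals alone, counted for this list after seeing the data, gave 2 lower and 2 higher. *Cd86* and *Cd80* had log2 changes of the ratio of -0.50 and -0.43, close to that of *Cd83*, and both calls were lost with that scaling (adjusted p = 0.119 and 0.371). *Flt3l* had a log2 ratio of 1.62 in Ctrl and of 0.71 in IR, a change of -0.89 (adjusted p = 0.00102), while its receptor gene *Flt3* gave no call. *Clec10a*, at 0.72 in Ctrl and 0.17 in IR, changed by -0.53 (adjusted p = 0.0254), a call lost with library totals (-0.22, adjusted p = 0.396), with 3 other settings and without any 1 of 4 pools (Ctrl 1 and 3, IR 1 and 2; adjusted p = 0.0666 to 0.131). The cDC1 gene *Wdfy4* moved the other way, from -0.27 to 0.50, a change of 0.79 (adjusted p = 1.73e-07), and *Irf4* changed by 0.34 (adjusted p = 0.0392), which was lost with the pool as a block (adjusted p = 0.0638), with no filter on low counts and without Ctrl pool 2 or 3 or IR pool 1 or 2 (adjusted p = 0.0631 to 0.192). *Lair1* changed by -0.45 (adjusted p = 0.00832), lost with library totals (adjusted p = 0.483) and without Ctrl pool 1 or 3 or IR pool 2 (adjusted p = 0.0506 to 0.0637), with a ratio of 0.74 in Ctrl and 0.26 in IR, the latter not past the threshold with the pool as a block (adjusted p = 0.0508). *Ccr9* changed by 2.36 on the log2 scale with an SE of 0.71 (adjusted p = 0.0220), but its IR IP counts ran from 38 to 190 and the call was lost without IR pool 1 (1.07, adjusted p = 0.208) and without any 1 of the Ctrl pools (adjusted p = 0.0585 to 0.0907). The ratios of *Kit* were -1.42 and -1.02, those of *Ikzf1* 0.06 and 0.31, those of *Snx22* -0.99 and -1.90 and those of *Cd300c* -0.07 and -1.08, with no call for a change in any of these 4 genes in the reported fit. With library totals alone *Kit* (0.73, adjusted p = 0.0170) and *Ikzf1* (0.58, adjusted p = 0.00102) passed as higher, and *Ikzf1* also passed in 5 other alternatives (adjusted p = 0.0118 to 0.0354).

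Over the 12 libraries, the gene whose log2 CPM followed each member most closely was sought among 10577 protein-coding genes. The likeness is a description, since the 12 libraries share 2 fractions and 2 conditions that move many genes together. *Cd83* was most like *Junb* (Pearson r = 0.997), *Fscn1* most like *Brk1* (r = 0.997) and *Cd209a* most like *Creg1* (r = 0.996). *Batf3* paired with *BC005624* (r = 0.982) and *Siglech* with *Plppr3* (r = 0.981). The closest genes to *Clec9a*, *Flt3* and *Zbtb46* were *Rasgef1a* (r = 0.938), *Nipsnap1* (r = 0.915) and *D10Wsu102e* (r = 0.907).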

How the data were processed

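Counts per gene were deposited by the authors for 12 RIP-seq libraries, unnormalised, with 5 summary lines per library that were left out of all tests. Per the labels and the study's methods, reads were trimmed with Trimmomatic 0.39, aligned with HISAT as stranded reads to mm10 with GENCODE M19 and counted with HTSeq; the strand option of the counting and any removal of duplicates are not given in the sources used here, so copies of 1 molecule may be counted more than once. The labels give a polyA selection and another antibody supplier than the methods. Groups came from the sample labels. Symbols and coordinates came from GENCODE M21, which held 99.9% of the identifiers with or without their version.

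A gene entered a comparison if 3 or more of its libraries had 10 counts or more, and tests were run in R 4.3.3 with edgeR 4.0.16 (TMM, quasi-likelihood F test, Benjamini-Hochberg over all genes tested, threshold 0.05), and SE is the log2 fold change divided by the root of F. IR was compared with Ctrl in the Input (6 libraries) and in the IP, IP with Input in each condition, and the change of the ratio over 12 libraries. The script was tested on simulated data. Alternatives were DESeq2 1.42.0, other scalings and filters, a fit of all 12 libraries, nuclear protein-coding genes only, a replicate block and leaving out each pool. By the methods, IP and Input of a pool come from 1 lysate. Libraries with the same replicate number were taken as 1 pool, an assumption, as the labels give only the number. Their deviations did not correlate across 11728 genes (r = -0.023 to 0.040). Libraries with different numbers gave r of -0.037 to 0.045.

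The 8 members, the gene lists and the tests were chosen with earlier results of these data known. The text names all 8 members, *Ythdf2*, and from the 5 dendritic cell lists the 6 largest rises and 6 largest falls in the Input among called genes with non-overlapping pools and a mean of at least 100 counts; other named genes were chosen after their values were seen. The result of 1 marker list is not reported here.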

Additional observations from a re-analysis of the deposited data

Results flagged for a closer look

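For 4 members the test of the interaction found that the ratio of IP to Input differed between the Ctrl and the IR pools. On the log2 scale the ratio changed by -0.91 for *Batf3* and by -1.07 for *Siglech*, the former with 3 of 3 IR pools below all Ctrl pools and the latter likewise. The change was -0.41 for *Cd83* and -0.29 for *Fscn1*, again with no overlap between the pools of both conditions. Of all genes tested, 20.2% passed this test, 6.28% higher and 13.9% lower. Non-overlap in the direction of a lower ratio was found for 21.6% of all genes tested. With library size only (edgeR), *Siglech* (adjusted p = 0.0551), *Cd83* (adjusted p = 0.436) and *Fscn1* (0.020, adjusted p = 0.908) lost their calls. *Batf3* kept its call there (-0.60, adjusted p = 9.48e-05). Groups of 3 pools are too small for a test of single outlying pools.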

How the results depend on the processing

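Of the log2 changes of the members under all alternatives, 455 kept their direction and side of the threshold, 18 lost and 8 gained a call, and 23 changed sign, all of them without a call in the reported fit except *Fscn1* in the change of the ratio. With all 12 libraries in 1 fit, 1 member and 4 of the 63 dendritic list genes were lower in the Input, and 1500 of all genes; in the IP 2125 genes were higher and 2952 lower, with 6 list genes higher. With library size only, 1 member was lower and 1 higher in the change of the ratio, with 10 list genes higher and 8 lower and 2862 and 877 of all genes, so that the excess of lower calls turned over; in the IP 1 member was higher (*Cd83*), with 15 list genes higher and 5 lower and 2665 and 828 of all genes. In the IP, 4 list genes were higher with DESeq2, with at least 10 counts in every library and with nuclear protein-coding genes only. The change of the ratio of *Ythdf2*, not called in the reported fit, turned from -0.22 to 0.092 with library size only. The cause of these moves was not tested.

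Signs turned for IP/Input in Ctrl with library size only for *Zbtb46* (-0.0022) and *Ikzf1* (-0.12), for *Ikzf1* also with no filter (-0.051) and all 12 libraries (-0.013), for *Cd300c* with protein-coding genes (0.028), and for *Irf4* with DESeq2 size factors (0.019), DESeq2 (0.019), 10 counts in every library (0.022) and protein-coding genes (0.091). For IP/Input in IR they turned with no filter for *Batf3* (-0.057) and *Cd86* (-0.047), and for *Siglech* with library size only (0.052), 10 counts in every library (0.025) and protein-coding genes (0.039). For the change of the ratio they turned with library size only for *Cd209a* (0.22) and *Fscn1* (0.020) and with 10 counts in every library for *Cd209a* (0.023). In the IP they turned for *Fscn1* with library size only (0.10) and for *Cd83* with no filter (-0.025) and all 12 libraries (-0.0014).

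Leaving out 1 pool gave for IP/Input in Ctrl -0.41 to 0.21 for *Cd300c* and -0.097 to 0.068 for *Irf4*; in IR -0.60 to 0.14 for *Flt3* and -0.33 to 0.22 for *Siglech*; for the change of the ratio -0.14 to 0.59 for *Flt3* and -0.22 to 0.024 for *Cd209a*; and in the IP -0.32 to 0.36 for *Flt3*, -0.047 to 0.29 for *Zbtb46* and -0.021 to 0.057 for *Cd83*. List genes higher were 2 to 5 for the change of the ratio and lower 7 to 11 in the IP. Genes higher were 3979 to 4153 for IP/Input in IR and 715 to 1056 in the IP.

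With the replicate block no call of a member changed, so the Input had 4 members higher and 3 lower, as in the reported fit. In the reported fit 21.0% of all genes were higher and 23.9% lower. With the block *Lair1* in the IR ratio lost its call (0.26, adjusted p = 0.0508), as did *Irf4* in the change of the ratio (0.33, adjusted p = 0.0638). For IR against Ctrl the pools share only a number (r = -0.021 to 0.050 across 11728 genes). Pairs with nearest genes were also computed, as alternatives added after seeing the data, with library size only and DESeq2 size factors, and r was at least 0.894. *Clec9a*, *Flt3* and *Cd209a* had 81 to 383 counts per IP library, and how far depth limits them was not tested.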

Other observations

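In the list of mast cell, basophil and eosinophil genes, 4 of 6 were lower in the Input and 2 were not called, with a median log2 fold change of -0.36. Of all genes tested there, 23.9% were lower and 21.0% higher. The log2 fold changes of the 6 ran from -2.37 to -0.10, and *Epx* had the lowest. Only the eosinophil genes *Epx* and *Prg2* of this list are given here, and both fell. The list also holds *Siglecf*. *Epx*, the eosinophil peroxidase, was at 32.1 ± 1.005 CPM in the Ctrl Input and 6.58 ± 0.92 CPM in the IR Input, and *Prg2*, the eosinophil major basic protein, at 23.8 ± 1.44 and 6.57 ± 0.63 CPM (SD, n = 3 each). The log2 fold changes were -2.37 and -1.94 by edgeR, against -1.85 for *Siglech*. Both genes were named after their values were seen.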
